A study of Mus musculus with 32 samples.

Results

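Heat shock chaperones, the proteins that help other proteins fold, stay folded or regain their shape, were followed as 10 genes of the microglial transcriptome: Hspa1a, Hspa1b, Hspa8, Dnajb1, Hsph1, Hsp90aa1, Hsp90ab1, Hspa5, Hsp90b1 and Hspe1. The genes were chosen by symbol as a family, and all 10 were found among the 18588 genes of the table. RNA had been sequenced from forebrain microglia of rTg4510 and wild type (WT) mice at 2, 4, 6 and 8 months of age, in 32 libraries, of which the study kept 28 after quality control. rTg4510 mice were females carrying both a human tau P301L transgene behind a tetracycline responsive element and a CaMKIIα-driven tetracycline transactivator, so that tau was made in forebrain neurons and doxycycline could repress it. WT mice were female littermates with neither transgene, given in the labels as 129/FVB F1. Each library came from microglia pulled down with CD11b beads out of the pooled forebrains of 8 to 10 animals, with 4 libraries per group at 2 and 6 months and 3 kept per group at 4 and 8 months.

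HSP70 proteins bind exposed stretches of unfolded protein in a cycle driven by ATP. J-domain proteins such as Dnajb1 hand them clients, HSP110 proteins such as Hsph1 swap their nucleotide, and HSP90 proteins take over many of the clients, among them kinases and tau. The compartments hold their own members: Hspa5 (BiP) and Hsp90b1 (Grp94) work in the endoplasmic reticulum (ER), where the unfolded protein response drives them, and Hspe1 is the lid of the mitochondrial chaperonin barrel made by Hspd1. Cytosolic heat shock genes are switched on within minutes by heat shock factor 1, which binds repeats of GAA and TTC, and they are known to respond to tissue dissociation as well as to disease.

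Sequence upstream of 7 of the 10 genes was found in the RefSeq promoter set of build GRCm38.p6 and is shown for 6, to set the heat shock and ER stress elements beside the expression of the genes they lie upstream of. Each line gives the 250 bases before the annotated start, 5′ to 3′ on the strand of the gene, and capitals mark matches to the motifs TTCNNGAA and GAANNTTC (2 units of a heat shock element), the same with 3 units (GAA, TTC and GAA, with 2 bases between neighbours) or an ER stress element (CCAAT, 9 bases and CCACG), searched on both strands. The motifs with 2 units overlap that with 3 units.
Hspa1a, chr17:34972157-34972406, minus strand: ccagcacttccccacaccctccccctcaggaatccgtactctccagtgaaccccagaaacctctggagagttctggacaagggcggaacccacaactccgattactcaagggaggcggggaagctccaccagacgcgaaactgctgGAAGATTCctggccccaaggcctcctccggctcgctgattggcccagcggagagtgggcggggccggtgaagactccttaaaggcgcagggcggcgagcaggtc
Hspa1b, chr17:34959239-34959488, minus strand: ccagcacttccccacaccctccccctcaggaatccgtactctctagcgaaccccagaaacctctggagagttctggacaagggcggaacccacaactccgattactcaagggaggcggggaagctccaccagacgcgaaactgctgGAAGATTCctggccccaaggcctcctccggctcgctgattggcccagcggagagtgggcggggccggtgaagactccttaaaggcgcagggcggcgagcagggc
Hsph1, chr5:149636316-149636565, minus strand: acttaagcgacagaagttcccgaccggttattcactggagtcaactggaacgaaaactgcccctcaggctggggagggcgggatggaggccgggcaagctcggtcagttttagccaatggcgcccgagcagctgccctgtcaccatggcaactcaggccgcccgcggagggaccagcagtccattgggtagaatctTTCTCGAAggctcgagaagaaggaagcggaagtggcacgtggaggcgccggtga
Hspe1, chr1:55087898-55088147, plus strand: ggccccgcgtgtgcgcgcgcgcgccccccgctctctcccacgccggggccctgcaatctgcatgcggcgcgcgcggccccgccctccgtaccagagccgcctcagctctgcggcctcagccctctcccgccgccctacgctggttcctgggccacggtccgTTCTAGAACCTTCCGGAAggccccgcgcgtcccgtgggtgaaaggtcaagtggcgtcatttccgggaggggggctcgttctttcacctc
Hspa5, chr2:34771840-34772089, plus strand: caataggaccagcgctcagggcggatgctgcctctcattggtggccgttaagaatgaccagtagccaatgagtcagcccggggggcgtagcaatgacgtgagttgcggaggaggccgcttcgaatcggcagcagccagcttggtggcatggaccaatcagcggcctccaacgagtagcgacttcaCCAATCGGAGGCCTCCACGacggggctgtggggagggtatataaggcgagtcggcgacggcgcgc
Hsp90b1, chr10:86705445-86705694, minus strand: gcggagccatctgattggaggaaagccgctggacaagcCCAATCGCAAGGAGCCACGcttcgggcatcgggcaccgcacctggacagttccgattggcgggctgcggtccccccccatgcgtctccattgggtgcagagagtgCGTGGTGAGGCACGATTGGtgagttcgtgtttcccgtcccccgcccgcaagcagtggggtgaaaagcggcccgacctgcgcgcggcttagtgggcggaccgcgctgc
Hspa1a and Hspa1b, neighbours on chromosome 17, had the same base at 247 of 250 positions (98.8%), and each held GAAGATTC at -104 to -97. Hspe1 held an uninterrupted run, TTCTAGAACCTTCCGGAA at -89 to -72, that includes the 3-unit motif, which 153 of all 32851 promoters contain, and the same 18 bases lie in the upstream window of Hspd1, which is read the other way from the same region of chromosome 1. A match to either 2-unit motif occurs in 12.8% of all promoters, so the single matches of Hspa1a, Hspa1b and Hsph1 are not rare. The ER stress element, found in 0.113% of promoters, occurred once upstream of Hspa5, starting at -65, and at -212 and -107 upstream of Hsp90b1. Neither window listed for Dnajb1 held a match.

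The 10 genes did not move as one. In rTg4510 microglia the cytosolic HSP70 genes and their helpers (Hspa1a, Hspa1b, Hspa8, Dnajb1 and Hsph1) were down-regulated at 4 months, by 1.53 to 4.71 fold, and all of them but Hspa8 again at 6 months. The mitochondrial Hspe1 was up-regulated at all 4 ages, by 1.52 to 2.40 fold. The HSP90 genes and the ER genes passed the test at no age. Values are log2 signals, on which a step of 1 is a doubling. A gene was called a differentially expressed gene (DEG) at a false discovery rate (FDR) under 0.05 with a change above 1.5 fold, from linear models per gene in limma with Benjamini-Hochberg adjustment over all genes.

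At 2 months 1 of the 10 genes was up-regulated, against 1.58% of all genes, and 0 were down-regulated, against 0.403% of all genes, with 0 lower at an unadjusted p under 0.05 as well and 1 call in all with moderated variances. At 4 months 1 gene was up-regulated, where 9.47% of all genes were, and 5 were down-regulated, where 4.33% of all genes were. At 6 months the counts were 1 up, against 11.3%, and 4 down, against 8.54%. At 8 months 1 gene was up, against 10.5% of all genes, and 1 was down, against 5.37%, which is near the background in this fit. With the replicate number as a block, 4 members were called at 8 months in place of 2, as Hspa1a and Hspa1b were then called down too. The share of all genes called with that block is not reported here. Every rTg4510 library lay below every WT library for 0, 5, 4 and 4 of the 10 genes at 2, 4, 6 and 8 months, where 3.51%, 17.5%, 14.6% and 15.5% of all genes did so. The median log2 difference of the 10 genes, rTg4510 minus WT, was -0.05, -0.51, -0.31 and -0.27 at 2, 4, 6 and 8 months, beside 0.01, -0.04, -0.04 and -0.01 over all genes. In bulk RNA, fewer cells that express a gene and less of its RNA per cell cannot be told apart.

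**Figure D1:**
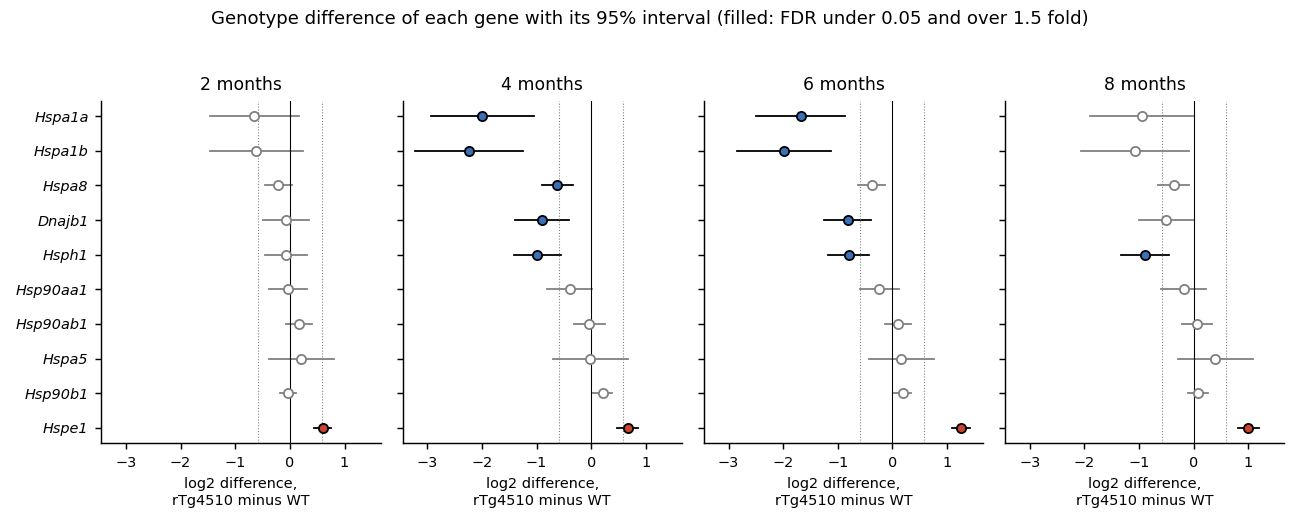
Log2 difference between rTg4510 and WT (x axis) for each of the 10 chaperone genes (y axis) at 4 ages, with 95% intervals as lines and dotted lines at 1.5 fold. Filled points passed the test: Hspa1a, Hspa1b, Dnajb1 and Hsph1 lie left of 0 at 4 and 6 months, down to -2.23 for Hspa1b. Hspa8 at 4 months and Hsph1 at 8 months are also filled left of 0, and Hspe1 lies right of 0 at every age, up to 1.26.

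Microglia markers led in each of the 28 kept libraries, and the left-out libraries were not summed. The summed signal of 10 of them (among them Cx3cr1, P2ry12, Tmem119 and Csf1r) was 14.47 to 15.26 on the log2 scale. It lay above the summed signals of the neutrophil (7.31 to 10.35), astrocyte (9.51 to 11.63), oligodendrocyte (7.45 to 10.83), endothelial (7.04 to 8.84) and border macrophage (10.21 to 11.33) lists and of the 3 neuron markers in the table (3.84 to 6.88). Signals of different genes are not scaled per length, so these levels describe the libraries only roughly. Of the microglia markers 0 were called up and 1, 2, 3 and 3 of 10 down at 2, 4, 6 and 8 months. Neutrophil markers were lower in rTg4510 where the cytosolic chaperones were: 8 of 8 had lower means at 4, 6 and 8 months, with medians of -1.10, -2.04 and -1.60, and 0, 7 and 5 of them were called down. Their summed signal at 4 months was 9.08 to 9.95 in WT and 8.03 to 8.84 in rTg4510. Deviations of the summed neutrophil signal from its group means had correlations between -0.26 and 0.19 with those of the 10 genes over 28 libraries. Border macrophage markers, of which 0, 0, 1 and 0 of 7 were down-regulated, had lower means for 7 of 7 at 4 months, with summed signals of 10.55 to 11.33 in WT and 10.21 to 10.47 in rTg4510, and the deviations of that sum correlated with those of Hspa8 at r = 0.73, Hsp90aa1 at 0.69 and Hspe1 at 0.65. The summed astrocyte signal was lower in rTg4510 without overlap at 4 months (10.17 to 10.50 in WT, 9.80 to 10.07 in rTg4510), 6 months (10.23 to 10.47 and 9.51 to 9.80) and 8 months (10.37 to 11.63 and 9.67 to 10.20), with 0, 2 and 3 of 7 markers called down and 0, 1 and 1 up. Slc1a3 had the highest mean of these markers (9.84 in WT and 9.28 in rTg4510 at 4 months) and weighs most in the sum. The marker called up at 6 and 8 months was Gfap, by 1.52 and 1.80. Of 7 endothelial markers 1, 2 and 1 were called down and 1, 1 and 1 up at these ages, of 3 neuron markers 0, 1 and 0 were called down, and 5, 7 and 7 of 7 oligodendrocyte markers had lower means. The part of these cells in the differences was not tested.

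Hspa1a (Entrez Gene 193740, chr17:34969359-34972156) and Hspa1b (15511, chr17:34956429-34959238) encode the stress-inducible HSP70, and showed the largest falls of the 10. At 4 months Hspa1a stood at 12.10, 12.08 and 11.78 in the WT libraries and at 9.64, 10.13 and 10.24 in the rTg4510 libraries. These groups did not overlap, and the log2 difference was -1.99 (SE 0.452, FDR 0.00236), a 3.97-fold fall. Hspa1b in the same libraries was 11.17, 11.34 and 10.89 in WT and 8.64, 9.07 and 8.98 in rTg4510. That is a difference of -2.23 (SE 0.473, FDR 0.00124).

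At 6 months the WT libraries spread widely, with Hspa1a at 11.28, 10.41, 12.13 and 10.66, while rTg4510 libraries held 9.67, 8.78, 10.01 and 9.28. The highest rTg4510 library was still below the lowest WT library, and the difference was -1.68 (SE 0.392, FDR 0.00198). Hspa1b was 10.43, 9.55, 11.05 and 9.35 in WT and 8.61, 7.59, 8.79 and 7.43 in rTg4510, a difference of -1.99 (SE 0.41, FDR 0.000639). Libraries with the same number moved together: within both genotypes, replicates 1 and 3 were the higher pair for both genes. As the groups did not overlap for either gene, each rTg4510 library necessarily sat below the WT library of its number too.

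At 8 months the difference did not pass in the main fit, which ignores the replicate number. Hspa1a was 10.73, 12.03 and 10.68 in WT and 10.11, 10.82 and 9.65 in rTg4510, so that the groups overlapped by the margin of 1 library, and the difference was -0.95 (95% interval -1.89 to -0.01, FDR 0.138). Hspa1b was 9.81, 11.12 and 9.77 in WT against 9.15, 9.76 and 8.59 in rTg4510, with no overlap and a difference of -1.07 (interval -2.06 to -0.08, FDR 0.108). Replicate 2 was the highest library of both genotypes. At this age same-numbered libraries deviated together over all genes, and with the replicate number as a block both genes passed, Hspa1a at an FDR of 0.0133 and Hspa1b at 0.00467, which raised the count of members called from 2 to 4.

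At 2 months neither gene was called. Hspa1a was 11.38, 11.55, 11.16 and 11.13 in WT and 11.03, 11.25, 9.77 and 10.57 in rTg4510, with a difference of -0.65 whose interval (-1.46 to 0.17) leaves room for a fall beyond 2 fold. Hspa1b differed by -0.62 (interval -1.47 to 0.24). The lowest rTg4510 value of both genes was that of replicate 3. The change of the genotype difference between 2 and 4 months, tested directly, was -1.34 (FDR 0.212) for Hspa1a and -1.61 (FDR 0.137) for Hspa1b.

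The 2 genes cannot be fully told apart by reads. Of the 100-base words in the Hspa1a transcripts, 56.5% also occur in another gene, and 49.9% of those of Hspa1b do, while how reads with several matches were counted is not given in the sources used here. Their deviations correlated at r = 0.95 over 28 libraries, the highest of the 45 pairs. Hspa1l, the testis-linked neighbour in the same cluster, shares 4.67% of the Hspa1a words and was down-regulated too, by 1.42 at 4 months (FDR 0.00361) and by 0.86 at 6 months (FDR 0.0273) on the log2 scale.

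**Figure D2:**
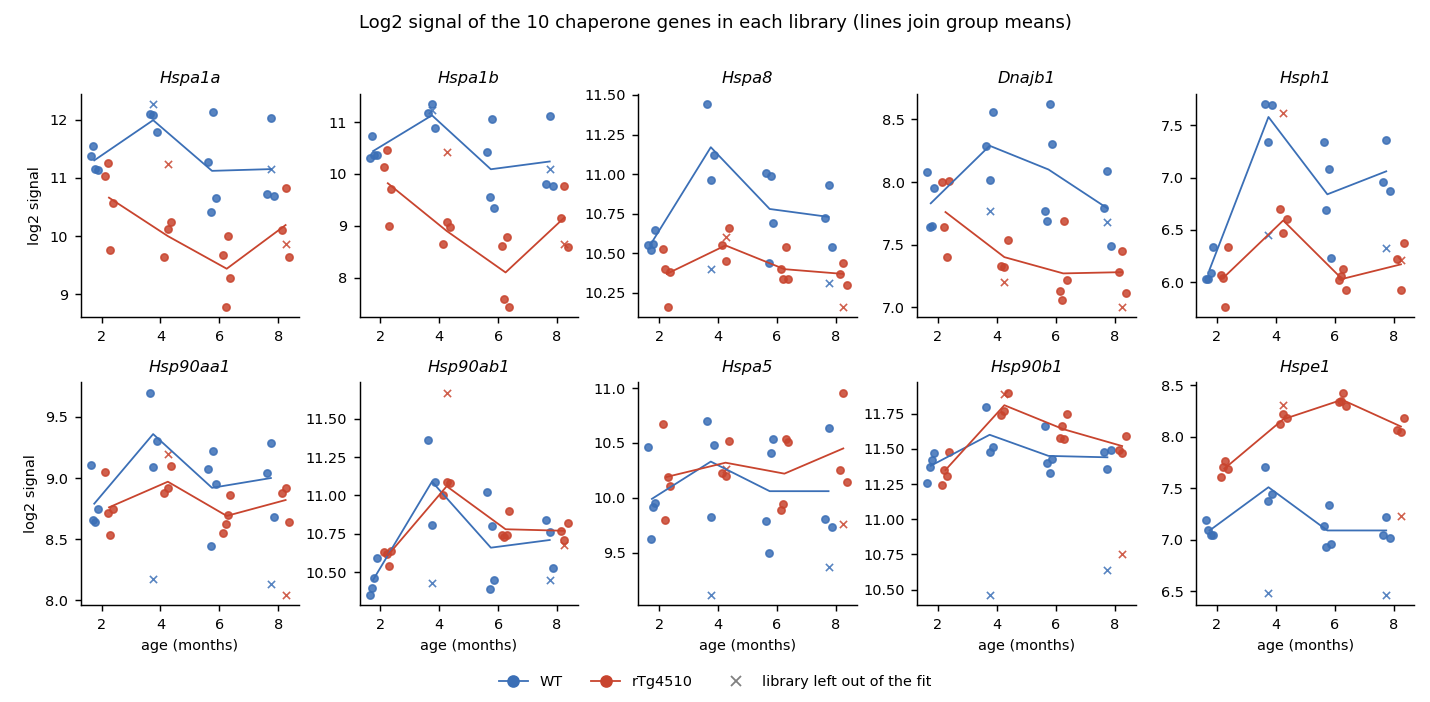
Log2 signal (y axis) of the 10 genes in each library by age in months (x axis), WT in blue and rTg4510 in red, with lines joining group means and crosses for the 4 libraries left out of the fit. WT means of all 10 genes are highest at 4 months, red points of kept libraries lie below blue ones for Hspa1a, Hspa1b and Hsph1 at 4 and 6 months, and Hspe1 in red lies above blue at every age.

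Dnajb1 (81489, chr8:83608175-83612653), the J-domain partner that loads clients onto HSP70 and is itself a heat shock factor 1 target, followed the same course at a smaller size. At 4 months it was 8.29, 8.02 and 8.56 in WT and 7.33, 7.32 and 7.54 in rTg4510, a difference of -0.90 (SE 0.235, FDR 0.00728). At 6 months it was 7.77, 7.69, 8.62 and 8.30 in WT and 7.13, 7.06, 7.69 and 7.22 in rTg4510, a difference of -0.82 (SE 0.203, FDR 0.00328), and the highest rTg4510 library, replicate 3, came up to the lowest WT library without passing it. Neither call held when only the 2 groups compared were fitted, with FDR values of 0.051 at 4 months and 0.0665 at 6 months and the same differences. WT replicate 3 was also the highest of its group. At 8 months the groups did not overlap (7.49 to 8.09 in WT, 7.11 to 7.45 in rTg4510), but the difference of -0.51 had an FDR of 0.126, and at 2 months it was -0.07 (interval -0.50 to 0.35).

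Hsph1 (15505, chr5:149616843-149636498), the HSP110 exchange factor of HSP70, was the cytosolic gene called at 3 ages. At 4 months it was 7.70, 7.34 and 7.69 in WT and 6.70, 6.47 and 6.6 in rTg4510, a difference of -0.99 (SE 0.209, FDR 0.00125). At 6 months WT libraries held 7.34, 6.69, 7.08 and 6.23 and rTg4510 libraries 6.02, 6.06, 6.13 and 5.92, with a difference of -0.80 (SE 0.181, FDR 0.0015). At 8 months the values were 6.96, 7.36 and 6.87 against 6.22, 5.92 and 6.37, a difference of -0.89 (SE 0.209, FDR 0.00284). Fitted on only the 2 groups compared, the calls at 6 months (FDR 0.0583) and 8 months (FDR 0.0702) were lost. At none of these 3 ages did the groups overlap, whereas at 2 months the groups covered the same range, 6.03 to 6.34 in WT and 5.76 to 6.34 in rTg4510, with a difference of -0.07 (interval -0.45 to 0.31).

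Hsph1 was the member whose genotype difference changed between 2 and 4 months by the test of that change itself, by -0.92 (SE 0.277, FDR 0.0489), where 0.893% of all genes changed downwards. The call is marginal: with single libraries dropped in turn it was lost 20 times of 28, with an FDR of up to 0.124 without WT 4 months replicate 4. With the replicate number as a block it was lost too (FDR 0.0682), and Hspa1a, Hspa1b and Dnajb1 were called down in its place. In WT, Hsph1 rose by 1.46 from 2 to 4 months (6.12 to 7.58, SE 0.196, FDR 0.00336), while in rTg4510 the mean went from 6.05 to 6.59, a difference of 0.54 (FDR 0.0698).

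Hspa8 (15481, chr9:40801276-40805202), the constitutive HSP70 of every cell, changed least of the genes that fell. At 4 months it was 11.44, 10.96 and 11.12 in WT and 10.55, 10.45 and 10.66 in rTg4510, a difference of -0.62 (SE 0.136, FDR 0.00182) and 1.53 fold, just past the threshold. The call was lost without WT 4 months replicate 1 (-0.48) and without rTg4510 4 months replicate 2 (-0.57), both with the FDR still under 0.05, and with only the groups compared (FDR 0.0922). At 6 months the difference of -0.38 had an FDR of 0.0168 but was 1.30 fold, and at 8 months the groups did not overlap, with a difference of -0.36 and an FDR of 0.0575. With quantile normalization it passed at both ages, at -0.78 and -0.75.

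The Hspa8 gene also carries 3 small nucleolar RNAs (snoRNAs), Snord14c, Snord14d and Snord14e, which guide methylation of ribosomal RNA and which the table lists as genes of their own and which were singled out after their values had been seen. They lie on the same strand in the introns between exons 5 and 6, 6 and 7, and 8 and 9 of the 9-exon principal transcript, at chr9:40803583-40803668, chr9:40803995-40804080 and chr9:40804748-40804837. The signals of all 3 were down-regulated at 4, 6 and 8 months, by 0.99 to 1.07, 1.25 to 1.44 and 1.14 to 1.30 on the log2 scale, with FDR values from 5.76e-05 to 0.0176. Reads over these intron loci may not be separable from those of unspliced Hspa8 RNA. The signals are therefore uncertain as levels of the snoRNAs themselves. At 8 months Snord14c ranged from 11.56 to 11.94 in WT and from 10.26 to 10.66 in rTg4510, with no overlap. At every age the snoRNA differences were larger in size than that of the host gene, but the difference between snoRNA and host was not tested. In their deviations Snord14e followed Hspa1a at r = 0.86, the second nearest of all genes to it, and followed its own host Hspa8 at 0.49.

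Processed copies of Hspa8 moved like the gene. Of its 100-base words 28.5% occur in 9 other genes, 7 of them in the table, and the copy that shares most of them, Gm15459 (26.3%), correlated with Hspa8 at r = 0.98. At 4 months these 7 copies differed by -0.83 to -0.43, and 3 were called down. Hspa8 values and those of its copies are therefore uncertain as separate measurements.

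**Figure D3:**
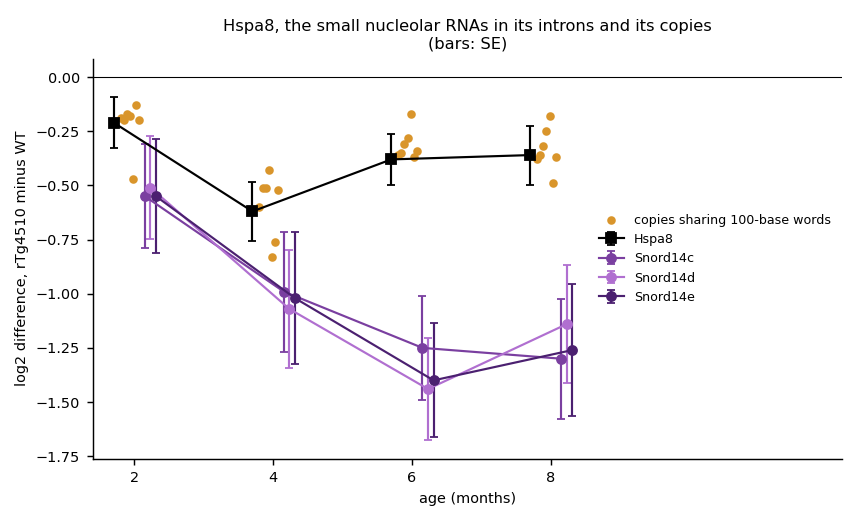
Log2 difference between rTg4510 and WT (y axis) by age in months (x axis) for Hspa8 (black squares), 3 snoRNAs in its introns (purple circles) and 7 copies that share 100-base words with it (orange points), with SE bars for the gene and the snoRNAs. The copies lie around Hspa8, between -0.83 and -0.13, and the snoRNAs lie lower from 4 months on, between -1.44 and -0.99.

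The cytosolic HSP90 genes, which receive clients from HSP70, were not called at any age. Hsp90aa1 (15519, chr12:110691036-110696395), the inducible form, was 9.70, 9.09 and 9.30 in WT and 8.88, 8.92 and 9.10 in rTg4510 at 4 months, a difference of -0.39 (interval -0.80 to 0.01, FDR 0.161). At the other ages its differences were -0.03, -0.24 and -0.18. Of its 100-base words 38.0% occur in 3 other genes, led by Gm12346, which moved with it at r = 0.96.

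Hsp90ab1 (15516, chr17:45567778-45573261), the constitutive form, had differences of 0.16, -0.03, 0.11 and 0.06 at 2, 4, 6 and 8 months. The intervals at these ages (-0.08 to 0.40, -0.31 to 0.25, -0.13 to 0.35 and -0.22 to 0.34) leave out a change of 1.5 fold. These signs depend on scaling, since with quantile normalization the values at 2, 6 and 8 months were -0.03, -0.34 and -0.32. Its libraries were tight in rTg4510, with an SD of 0.0471 at 2 months and 0.0486 at 4 months, beside 0.104 and 0.275 in WT. The HSP90 genes and the HSP70 genes of the cytosol thus differed in call at 4 months, but whether their differences differ from each other was not tested.

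In the ER, neither Hspa5 (14828, chr2:34772090-34776529), the HSP70 of that compartment and the sensor partner of the unfolded protein response, nor Hsp90b1 (22027, chr10:86690841-86705444), its HSP90, was called. Hspa5 differed by 0.20, -0.02, 0.16 and 0.39, but its libraries spread so widely that at 8 months the interval ran from -0.29 to 1.08. At 8 months it was 9.81, 10.64 and 9.73 in WT and 10.25, 10.96 and 10.14 in rTg4510. Replicate 2 was the highest of both genotypes and every rTg4510 library stood above its same-numbered WT library. Rabepk, which overlaps Hspa5 in position and from which its reads may not be separable, was not called at any age either, with differences of -0.01 to 0.29.

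Hsp90b1 was among the least variable of the 10, with a residual SD of 0.108, lower than in all but 11.3% of genes. Its differences were -0.03, 0.21, 0.19 and 0.08, with intervals of 0.02 to 0.39 at 4 months and 0.03 to 0.34 at 6 months that exclude 1.5 fold, and FDR values of 0.0985 and 0.0652. The sign turned with quantile normalization, to -0.22 at 4 (FDR 0.158), -0.32 at 6 (FDR 0.011) and -0.37 at 8 months (FDR 0.013). The last 2 were thus lower on FDR alone in that scaling, under 1.5 fold.

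Hspe1 (15528, chr1:55088148-55091317), the mitochondrial co-chaperonin, was the gene that rose. Its libraries did not overlap between genotypes at any age, where 7.49%, 19.1%, 18.2% and 21.2% of all genes had every rTg4510 library above every WT library at 2, 4, 6 and 8 months. At 2 months it was 7.19, 7.09, 7.05 and 7.05 in WT and 7.61, 7.71, 7.76 and 7.69 in rTg4510, a difference of 0.60 (SE 0.078, FDR 7.42e-05). At 4 months WT libraries held 7.71, 7.38 and 7.44 and rTg4510 libraries 8.12, 8.22 and 8.18, a difference of 0.67 (SE 0.09, FDR 8.17e-06). The genotypes were thus apart at 2 months, an age at which no other member was called.

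At 6 months Hspe1 reached its highest level, 8.34, 8.35, 8.43 and 8.30 in rTg4510 against 7.13, 6.93, 7.34 and 6.96 in WT. The difference of 1.26 (SE 0.078, FDR 7.68e-11) was 2.40 fold. At 8 months the values were 8.07, 8.05 and 8.18 against 7.05, 7.22 and 7.02, a difference of 1.0 (SE 0.09, FDR 2.67e-08). Within rTg4510 the libraries of an age agreed closely, with SDs of 0.0467 to 0.0711.

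The rise at 2 months sits at the threshold. At 1.52 fold it fell under 1.5 fold without WT 2 months replicate 3 or rTg4510 2 months replicate 3, both at 0.58 with the FDR at most 0.000535. The change of the genotype difference from 4 to 6 months, tested directly, was 0.60 (SE 0.119, FDR 0.0457), where 0.0377% of all genes changed upwards. This call was lost in 22 of 28 fits that left out 1 library, with the FDR at most 0.115 in these, without rTg4510 4 months replicate 1. Over that step the change within WT was -0.42 (FDR 0.0599) and that within rTg4510 was 0.18 (FDR 0.343), and neither was called. From 2 to 8 months the genotype difference grew by 0.40 (FDR 0.0345), under 1.5 fold.

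Hspd1, the barrel that Hspe1 closes, shares its start region and overlaps it in position, and was not called. Its differences were 0.19, 0.12, 0.49 and 0.31 at 2, 4, 6 and 8 months, with FDR values of 0.208, 0.385, 3.94e-05 and 0.0139, and all were under 1.5 fold. At 6 months its mean was 7.50 in WT and 7.99 in rTg4510. Of the 1375 words of 100 bases in Hspe1 151 occur in 2 other genes, Hspd1 among them. Whether the difference of Hspe1 exceeds that of Hspd1 was not tested.

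Across age, WT microglia had the highest mean of all 10 genes at 4 months, and the group of 3 libraries behind it is also the reference of the 4-month comparison. From 2 to 4 months in WT the means of all 10 genes were higher, by a median of 0.59 beside 0.02 over all genes. Of the 10, 7 had an unadjusted p under 0.05, as had 30 of the 107 genes of the other chaperone lists, 1 of them lower. Shares of all genes at an unadjusted p under 0.05, or with a higher or lower mean, are not reported here for any comparison. After adjustment 1 member was called, Hsph1, where 0.0377% of all genes were called up. Fitted on only those 2 groups, its FDR was 0.344. It was 1 of only 7 genes called up in this comparison. The others include Dnaja1, a J-domain protein (7.93 to 8.83, FDR 0.0179), and Stip1, the adaptor between HSP70 and HSP90 (6.47 to 7.21, FDR 0.0369), which were singled out after their values had been seen, so 3 of these 7 genes are chaperones or co-chaperones of the lists. Further members fell short with FDR values of 0.0551 for Hsp90ab1 (0.64), 0.0619 for Hspe1 (0.41) and 0.0792 for Hspa8 (0.60).

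From 4 to 6 months in WT the means of all 10 genes were lower, with a median difference of -0.42 beside -0.02 over all genes. Of the 10, 0 were called in limma or with moderated variances, where 0.00538% of all genes were called. At an unadjusted p under 0.05 stood 6 of them, and 28 of the 107 genes of the other chaperone lists. Hsph1 stayed above its 2-month level at 8 months in WT, by 0.94 (SE 0.196, FDR 0.0105), the one call of that comparison, where 0.533% of all genes were called up. The call was lost without WT 8 months replicate 2 (0.79, FDR 0.0636) and with only the groups compared (FDR 0.155).

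In rTg4510 microglia the means of 7 of 10 members were higher at 4 than at 2 months. In that step 0 of 10 were called in limma, where 4.03% of all genes were called up and 2.36% down, also with moderated variances. An unadjusted p under 0.05 was found for 5 members and for 44 of the 107 genes of the other chaperone lists. Hsp90b1 (0.46, FDR 0.000581), Hspe1 (0.48, FDR 0.000452) and Hsp90ab1 (0.45, FDR 0.0176) passed on FDR alone, as 15.2% of all genes did. From 4 to 6 months the means of 9 of 10 members were lower, with a median difference of -0.22 beside -0.01 over all genes. Called in limma or with moderated variances were 0, where 0.818% of all genes were called. At an unadjusted p under 0.05 stood 3 members and 17 of the 107 genes of the other lists. Hspa1a, Hspa1b and Dnajb1 had their highest rTg4510 means at 2 months and their lowest at 6 months, with Hspa1a at 10.66 and 9.44 at these ages.

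The spread between libraries of a group differed widely by gene. Hspa1a and Hspa1b had residual SDs of 0.554 and 0.580, larger than in 83.4% and 84.6% of genes, followed by Hspa5 at 0.403, whereas Hspe1 had 0.110 and the median gene 0.232. Over 28 libraries, the deviations from the group means of the 45 pairs of members had a median r of 0.44, from -0.30 (Hsp90b1 with Dnajb1) to 0.95, and 19 pairs were above 0.5. A library that was high for Hspa8 tended to be high for Hsp90aa1 (0.83) and Hsp90ab1 (0.76), Hsph1 went with Hsp90ab1 (0.70), and Hspa5 with Hsp90aa1 (0.78) and Dnajb1 (0.77). These points share libraries and their normalization.

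**Figure D4:**
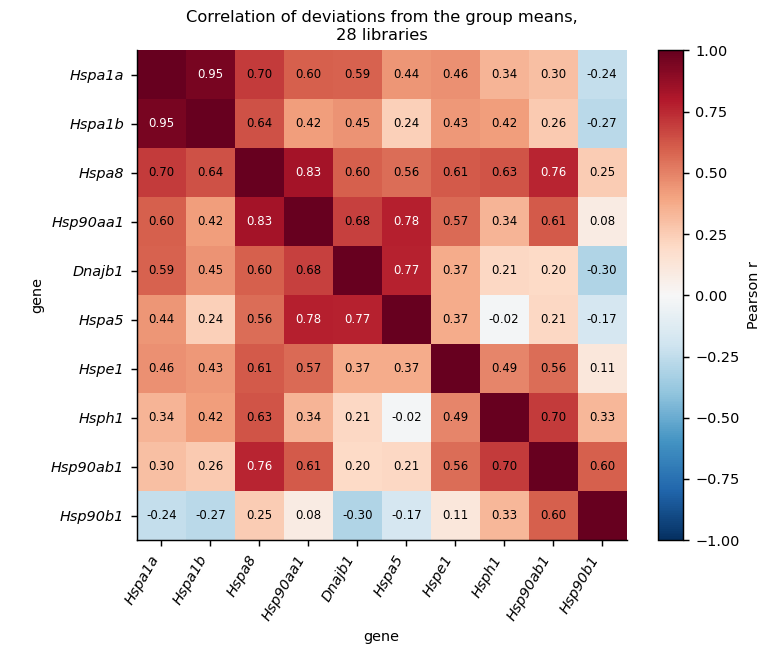
Pearson correlations of the deviations of 10 chaperone genes from their group means over 28 libraries, with the same genes on both axes and the colour scale running from -1 to 1. Hspa1a and Hspa1b are the closest pair at 0.95, and Hsp90b1 is below 0 with Hspa1a, Hspa1b, Dnajb1 and Hspa5.

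The nearest genes in the whole table differed by member. Hspa5 was followed by Bbc3 (0.96), Txnip (0.96) and Zfand5 (0.95), and 5 of its 50 nearest genes are immediate early genes (Dusp1, Ier3, Klf2, Klf4 and Klf6), fast-response genes that cell isolation is known to switch on. Dnajb1 was followed by Gm20199 (0.91) and Csrnp1 (0.89), among others, and 5 of its 50 nearest are immediate early genes too. Hsp90b1 was nearest to Pdia6 (0.88) and Pdia3 (0.87), disulfide isomerases of the ER, and Hsph1 to Gm6335 (0.88), Dnaja1 (0.83) and Chordc1 (0.80), the last an HSP90 co-chaperone. For Hsp90ab1, 3 other members and 7 genes of the other chaperone lists were among the 50 nearest.

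The summed signal of 22 immediate early genes gives the values for that set. Its deviations correlated with those of Hspa5 at 0.88, Dnajb1 at 0.78 and Hsp90aa1 at 0.62, but with Hspa1a at 0.34, Hspa1b at 0.10 and Hsph1 at -0.13. The summed level was 18.63 to 19.02 in WT and 18.53 to 18.65 in rTg4510 at 4 months, and 18.47 to 19.09 against 18.38 to 18.90 at 6 months. By gene, 3, 4, 6 and 4 of the 22 were up-regulated and 0, 1, 1 and 1 down-regulated at 2, 4, 6 and 8 months. Of all genes, 1.58%, 9.47%, 11.3% and 10.5% were up-regulated and 0.403%, 4.33%, 8.54% and 5.37% down-regulated at these ages. Its part in the differences was not tested.

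The other genes of the chaperone network, 107 in 9 lists, were called about as often as all genes or less. At 4, 6 and 8 months 9, 8 and 9 of them were up-regulated, where 9.47%, 11.3% and 10.5% of all genes were, and 2, 2 and 1 were down-regulated, where 4.33%, 8.54% and 5.37% of all genes were, and at 2 months 0 were called in limma or with moderated variances, with 22 at an unadjusted p under 0.05. Their median difference was 0.03, 0.10 and 0.09 at 4, 6 and 8 months. The heat shock factor list held Hsf1, Hsf2, Hsf5 and Hsbp1, the last a protein that binds such a factor. Of these 4 genes 0 were called at any age in limma or with moderated variances. Hsf1 differed by -0.03, -0.19, -0.25 and -0.27, with FDR values of 0.945, 0.28, 0.0645 and 0.103. At an unadjusted p under 0.05 stood 1, 1, 4 and 2 of the 4 genes of this list.

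Other HSP70 and HSP110 genes split: besides Hspa1l, Hspa12a, a distant HSP70 relative, rose by 0.70 at 4 months (FDR 0.00116) and 0.69 at 8 months (FDR 0.00126). Among 20 other J-domain proteins 1 was called, Dnajb14, an ER membrane protein, which rose by 1.17, 1.27 and 1.19 at 4, 6 and 8 months. Of 11 genes for nucleotide exchange and handover, Bag1 rose by 0.79, 0.80 and 0.74 at these ages and Hspbp1 by 0.60 at 4 months. Of 12 HSP90 co-chaperones 0 were called at any age, also with moderated variances, with 1, 4, 5 and 7 at an unadjusted p under 0.05.

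Small heat shock proteins, which hold unfolded proteins without ATP, moved both ways among the 7 in the table. Hspb7 rose by 1.60, 2.37 and 1.79 and Hspb11 by 0.64, 0.99 and 0.66 at 4, 6 and 8 months, and Hspb3 fell by 1.0, 1.19 and 1.54. Hspb11 is a member of the list by name and known as a part of the transport complex of cilia. Among 11 other mitochondrial chaperones Hscb, which helps to build iron-sulfur clusters, rose by 1.06, 1.26 and 1.02 and was the only one called.

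Of 26 genes of ER folding and the unfolded protein response, Sdf2l1, a partner of Hspa5, rose by 0.73, 0.85 and 0.71 at 4, 6 and 8 months, and Herpud1, which serves ER-associated degradation, by 0.73 at 8 months (FDR 0.0141), and the other 24 were called at no age. Of 14 genes of the cytosolic chaperonin and prefoldin, Pfdn5 rose by 0.74, 1.03 and 0.97 and Cct2 by 0.60 at 6 months. Nothing particular to a list is read from these counts.

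**Figure D5:**
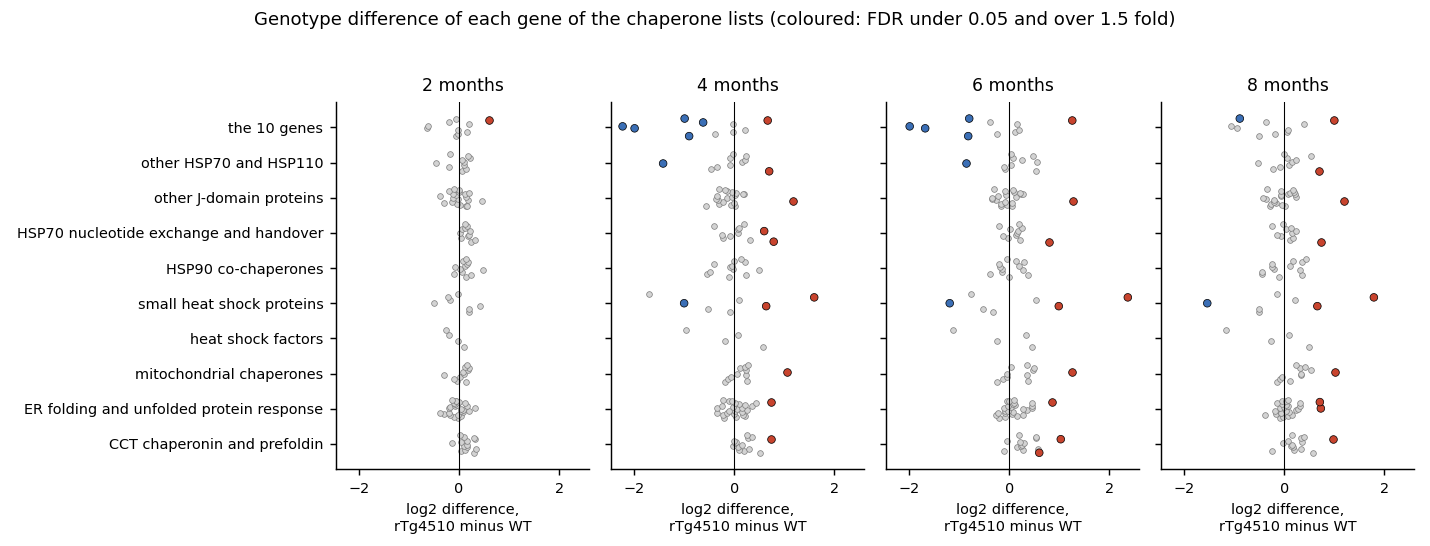
Log2 difference between rTg4510 and WT (x axis) for every gene of the 10 members and 9 other chaperone lists (y axis) at 4 ages, red where up-regulated and blue where down-regulated DEGs, grey otherwise. Most grey points lie near 0, and blue points are found among the 10 genes, the other HSP70 genes (Hspa1l) and the small heat shock proteins (Hspb3).

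The 4 libraries that failed quality control lay apart for some members. At 4 months the left-out replicate 3 read 6.45 for Hsph1 in WT and 7.62 in rTg4510, the reverse of the kept libraries, and 11.23 for Hspa1a in rTg4510. Hspe1 in the left-out WT libraries was 6.48 at 4 months and 6.46 at 8 months. With all 32 libraries Hspa1a, Hspa1b and Dnajb1 were still called down at 4 and 6 months, while Hsph1 at 4 months was -0.45 (FDR 0.249), Hspa8 at 4 months -0.41 (FDR 0.0603), Hsph1 at 8 months -0.70 (FDR 0.0794) and Hspe1 at 2 months 0.60 (FDR 0.182).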

How the data were processed

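Per the paper's methods and the labels, the authors deposited log2 signals per gene. Exon reads were summed over the sequencing runs of a library, sparsely covered exons were left out, a robust linear model over exons gave 1 value per gene, and the log2 values were median normalized. The build was GRCm38 per the submitters' processing notes, and the aligner, the annotation and the use of strand or of reads with several matches are not given in the sources used here. The paper states an approximate number of reads per sample, but the log2 signals hold no read counts per gene, so no counting interval is given. A linear model per gene with 8 groups was fitted to the 28 libraries kept by the study, with unmoderated variances on 20 residual degrees of freedom and limma contrasts (limma 3.58.1, R 4.3.3), Benjamini-Hochberg adjustment over 18588 genes, an FDR threshold of 0.05 and 1.5 fold. It was tested on simulated data. Comparisons of genotype at different ages use different libraries, while comparisons between ages share them.

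Symbols came from RefSeq tables of GRCm38.p6 by Entrez identifier, of which 17828 (95.9%) matched. No value column was left unused. Genes named were the 10 members, Hsf1 and Hspd1, from each other list at most the 2 called genes of largest size in each direction, the 3 nearest genes by correlation of deviations from group means. Genes that overlap a member or share words of 100 bases with it, and those called between ages in WT, were added after their values were seen. Some genes that this rule names are not reported here. The members and lists were chosen with earlier results of these data known. Same-numbered libraries had deviations correlated at 0.131 to 0.153 at 6 months and 0.15 to 0.291 at 8 months. They were treated as pairs only in the replicate block setting. The main fit, which gave the differences, SE and calls unless a setting is named, held no block at any age. At 2 months the values were 0.0649 to 0.167, mostly above those of other pairs, which reached 0.0816. At 4 months they ran from -0.0999 to 0.124, and the libraries of that age were not taken as paired. Alternatives were moderated variances, all 32 libraries, quantile or upper quartile scaling, a filter on low signals, a fit of only the groups compared, the replicate block and each library left out. The other software was the R package data.table (version 1.17.8), Python 3.11.15, numpy 2.4.6, pandas 2.3.3 and matplotlib 3.10.9.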

Additional observations from a re-analysis of the deposited data

Results flagged for a closer look

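Of 40 sets of 4 libraries (a gene in a group), 3 held a library far from the rest, where chance gives about 1 in 20. Hspa1b in WT 2 months replicate 2 was 10.74, above the other libraries of its group (10.31 to 10.37). Hsp90ab1 in rTg4510 2 months replicate 3 was 10.54, below the others (10.62 to 10.64), and in rTg4510 6 months replicate 4 it was 10.90, above the others (10.73 to 10.74).

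For 2 members the genotype difference itself differed between ages. That of Hsph1 changed by -0.92 from 2 to 4 months (limma, FDR 0.0489), and that of Hspe1 by 0.60 from 4 to 6 months (FDR 0.0457). Both calls lie close to the threshold.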

How the results depend on the processing

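Falls of Hspa1a, Hspa1b, Dnajb1 and Hsph1 at 4 and 6 months and the rise of Hspe1 at 4, 6 and 8 months were called without any 1 library. With only the groups compared, Hspa8 and Dnajb1 were lost at 4 months (FDR 0.0922 and 0.051), Dnajb1 and Hsph1 at 6 months (0.0665 and 0.0583) and Hsph1 at 8 months (0.0702). Counts of called members depended on the setting. At 2 months 0 were called with all 32 libraries, quantile or upper quartile scaling, in place of 1. At 4 months 4 were called with all 32 libraries or only the groups compared, in place of 6. At 6 months only the groups compared gave 3, in place of 5. At 8 months, in place of 2, the replicate block gave 4, quantile scaling 5, and all 32 libraries or only the groups compared 1. For WT from 2 to 4 months, in place of 1, moderated variances and the filter gave 2, quantile scaling 3, and all 32 libraries or only the groups compared 0. For WT from 2 to 8 months all 32 libraries or only the groups compared gave 0, in place of 1. For rTg4510 from 2 to 4 months all 32 libraries gave 1, in place of 0. For the change of the genotype difference from 2 to 4 months, in place of 1, the replicate block gave 3 other genes, Hspa1a (-1.34, FDR 0.0308), Hspa1b (-1.61, FDR 0.0103) and Dnajb1 (-0.83, FDR 0.0057), and lost Hsph1 (FDR 0.0682). Deviations of same-numbered libraries correlated at 0.0649 to 0.167 at 2 months, but at -0.0999 to 0.124 at 4 months. For this change quantile scaling gave 2 and all 32 libraries 0. For that from 4 to 6 months the replicate block, all 32 libraries, both scalings, the filter and only the groups compared gave 0, in place of 1. The cause was not tested.

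Leaving out 1 library gave between 0 and 1 called members at 2 months. The 4-month count lay between 5 and 6, the 6-month count stayed at 5 and the 8-month count at 2. It gave 1 to 3 for WT from 2 to 4 months and 0 to 1 for WT from 2 to 8 months, rTg4510 from 2 to 4 months and the changes of the genotype difference from 2 to 4, 4 to 6 and 2 to 8 months.

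Signs turned for genes that were not called. With quantile scaling Hsp90ab1 was -0.03, -0.34 and -0.32 at 2, 6 and 8 months, Hsp90b1 -0.22, -0.32 and -0.37 at 4, 6 and 8 months, and Hspa5 -0.15 at 6 months. Among these, Hsp90ab1 at 6 months (FDR 0.0413) and Hsp90b1 at 6 and 8 months (FDR 0.011 and 0.013) passed on FDR alone, under 1.5 fold. With all 32 libraries Hspa5 was 0.27 and Hsp90ab1 0.29 at 4 months. With 1 library left out, the range at 2 months was -0.13 to 0.08 for Hsp90aa1, -0.08 to 0.00 for Hsp90b1, -0.15 to 0.05 for Dnajb1 and -0.17 to 0.02 for Hsph1. At 4 months it was -0.27 to 0.17 for Hspa5 and -0.17 to 0.10 for Hsp90ab1, at 6 months -0.02 to 0.32 for Hspa5 and at 8 months -0.03 to 0.13 for Hsp90ab1. The replicate block changed no other call of a genotype difference at 6 or 8 months than those of Hspa1a and Hspa1b at 8 months. Read counts per gene are not known here, so what depth limits cannot be stated.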
